A study of Mus musculus with 12 samples.

Results

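The genes described here are 41 glycolysis and hypoxia response genes, chosen by symbol from a list and matched to the 55487 gene identifiers of 12 RNA-seq libraries. All 41 were found, and 40 passed the filter on low counts; the exception was Car9, a carbonic anhydrase, at 0 to 0.76 CPM (counts scaled by library size) over the libraries. They comprise 17 enzymes of glycolysis, 4 glucose and monocarboxylate transporters, 3 regulators of glycolytic flux, 5 genes of the hypoxia-inducible factors (HIF) and their prolyl hydroxylases, and 12 other HIF targets. The libraries are from the germinal (ventricular) zone of mouse embryonic dorsal cortex, cut out by laser microdissection, with 3 libraries in each of 4 groups. The mice were built to carry, in ROSA26, p18 joined by a P2A peptide to the fluorescent protein mKO2 behind a loxP-flanked stop sequence, and tamoxifen was given by intraperitoneal injection for every library. The p18mKO2- groups have the genotype label normal and the p18mKO2+ groups the label p18mKO2 over-expression, each at the embryonic stages E13.5 and E16.5. The labels do not name the Cre driver, nor say whether the 3 replicates of a group are separate embryos, and each p-value therefore measures variation among these libraries only, some of which may be technical.

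Glycolysis splits glucose into pyruvate, and lactate dehydrogenase turns pyruvate into lactate when it is not burned in mitochondria. Several steps have isozymes encoded by separate genes, of which Hk2, Pfkl and Ldha are often high in dividing cells and Hk1, Pfkp, Pfkm, Eno2 and Ldhb in neurons. HIF factors are held low in oxygen by prolyl hydroxylases and, when stable, raise transcription of glycolytic enzymes, the glucose transporter Slc2a1, Vegfa and others through a short DNA core, and progenitors of the early cortex are known for high glycolysis before vessels fill the wall.

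The libraries held between 17101971 and 21837088 estimated counts each. Cdkn2c, which encodes p18, was not called different at either stage: its log2 change was 0.14 ± 0.26 (SE; adjusted p = 0.798) at E13.5 and 0.32 ± 0.26 (adjusted p = 1) at E16.5 by edgeR's quasi-likelihood test. Its level therefore did not check the p18mKO2 labels, on which every direction below rests. Replicate 3 of E13.5 p18mKO2+ and replicate 3 of E16.5 p18mKO2+ held transcripts of both sexes (Xist and summed Y-linked genes each above 50 CPM). Counts of called members in comparisons that rest on these libraries are given with and without them. Counts within shorter lists are given with them only, except that glycolytic enzymes at E13.5 are also given without replicate 3 of E13.5 p18mKO2+. Every E13.5 p18mKO2- library held Xist (1903 to 1937 CPM) and almost no Y-linked transcripts (0.109 to 0.415 CPM). In E13.5 p18mKO2+, replicate 1 held Xist alone and replicate 2 Y-linked transcripts (178 CPM) with Xist at 3.57 CPM. At E16.5, Xist was high in replicates 1 and 3 of p18mKO2-. Y-linked transcripts were high in replicate 2 of p18mKO2- and replicates 1 and 2 of p18mKO2+. Sex was not balanced between the groups compared, and its part in the results was not tested. The summed CPM of 8 dividing-cell markers was 2846 to 3017 in E13.5 p18mKO2-, 1410.4 to 1941 in E13.5 p18mKO2+, 828 to 1336 in E16.5 p18mKO2- and 1073 to 1271 in E16.5 p18mKO2+, with none of the 8 at 0. Over the same groups 10 neuronal markers summed to 2180.0 to 2590.3, 4526 to 5904, 6848 to 9321 and 6636 to 7308 CPM, and 12 markers of radial glia and dorsal cortex to 3675 to 4342, 2251 to 3493, 2385 to 2934 and 2625 to 2748 CPM. At E13.5 the sums of p18mKO2- and p18mKO2+ did not overlap for any of these 3 lists. Markers of the ventral telencephalon (8 genes) summed to 199 to 535 and 566 to 826 CPM at E13.5 and to 181 to 273 and 376 to 576 CPM at E16.5 in p18mKO2- and p18mKO2+, without overlap at either stage. The part of these lists in the results below was not tested. In bulk tissue, fewer cells of a type and less RNA per cell cannot be told apart.

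At E13.5, enzymes along the glycolytic chain, the lactate transporter Slc16a1, the glucose transporter Slc2a1, Pdk1 and Hif3a were lower in p18mKO2+ than in p18mKO2-, while the isozymes Hk1 and Eno2 were higher. Of 40 members tested, 12 were called (edgeR's quasi-likelihood test on all 16798 genes tested, Benjamini-Hochberg adjusted p under 0.05), against 10.8% of all genes tested. Of these, 10 fell, against 3.49% of all genes, and 2 rose, against 7.29%. The median log2 change of the 40 members was -0.18, beside 0.01 over all genes tested. Groups did not overlap for 22 members, against 30.7% of all genes tested: 16 were lower in p18mKO2+ (14.1% of all genes) and 6 higher (16.6%). The count of 12 rested in part on single libraries: it was 4 without replicate 3 of E13.5 p18mKO2+, 5 without replicate 1 of that group, 6 without replicate 2 and 8 without replicate 1 of E13.5 p18mKO2-, and 19 without replicate 3 of E16.5 p18mKO2-. Calls over all genes moved too, from 1810 to 933, 927, 1140, 1321 and 2383 in the same order. Without both libraries with transcripts of both sexes, 4 members were called (Eno2, Hif3a, Ldha and Pgam1), and 796 of all genes. Eno2, Hif3a, Ldha and Pgam1 were called in all 20 alternative settings run; the 7 others apart from Slc2a1 lost the call in 4 to 6 of 20, and Slc2a1 in 12.

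At E16.5 no member was called between p18mKO2+ and p18mKO2- by edgeR's quasi-likelihood test or by DESeq2, nor was any of the 16798 genes tested by edgeR (0% called). DESeq2 called 16 of all genes. At an unadjusted p under 0.05 there were 2 members, Eno2 and Hif3a, against 426 of 16798 genes. The median log2 change of the 40 members was 0.02, beside -0.01 over all genes tested. Groups did not overlap for 1 member, Ndrg1, which was lower (7.95% of all genes did not overlap, 3.88% with p18mKO2+ lower). Reads of the ribosomal RNA gene CT010467.1 lay at 70619 to 151990.0 CPM in E16.5 p18mKO2- and 16646 to 39641 CPM in E16.5 p18mKO2+; with this level as a covariate, no member was called at E16.5 and the median log2 change of the 17 enzymes was 0.34, against 0.02 without it. From E13.5 to E16.5 within p18mKO2-, 26 members were called, 17 lower and 9 higher at E16.5, against 29.8% of all genes called (13.4% lower and 16.4% higher). The stages did not overlap for 30 members, 18 lower and 12 higher, against 40.4% of all genes (19.4% lower and 21% higher), and the median log2 change of the 40 members was -0.22, beside -0.02 over all genes tested. Within p18mKO2+ a single member, Slc2a3, was called between stages, against 1.64% of all genes (1.08% higher and 0.554% lower). At an unadjusted p under 0.05 there were 14 members, against 2486 of 16798 genes, and DESeq2 called 9, against 839. The stages did not overlap in p18mKO2+ for 19 of 40 members, against 26.6% of all genes. These comparisons share groups: E13.5 p18mKO2- enters both the p18 comparison at E13.5 and the stage comparison in p18mKO2-, so their values are set side by side below without a measure of agreement. A difference in the p18 effect between the stages was called for 1 member, Hif3a, against 2.7% of all genes (0.298% in its direction, toward higher in p18mKO2+ at E16.5, and 2.4% in the other).

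**Figure D1:**
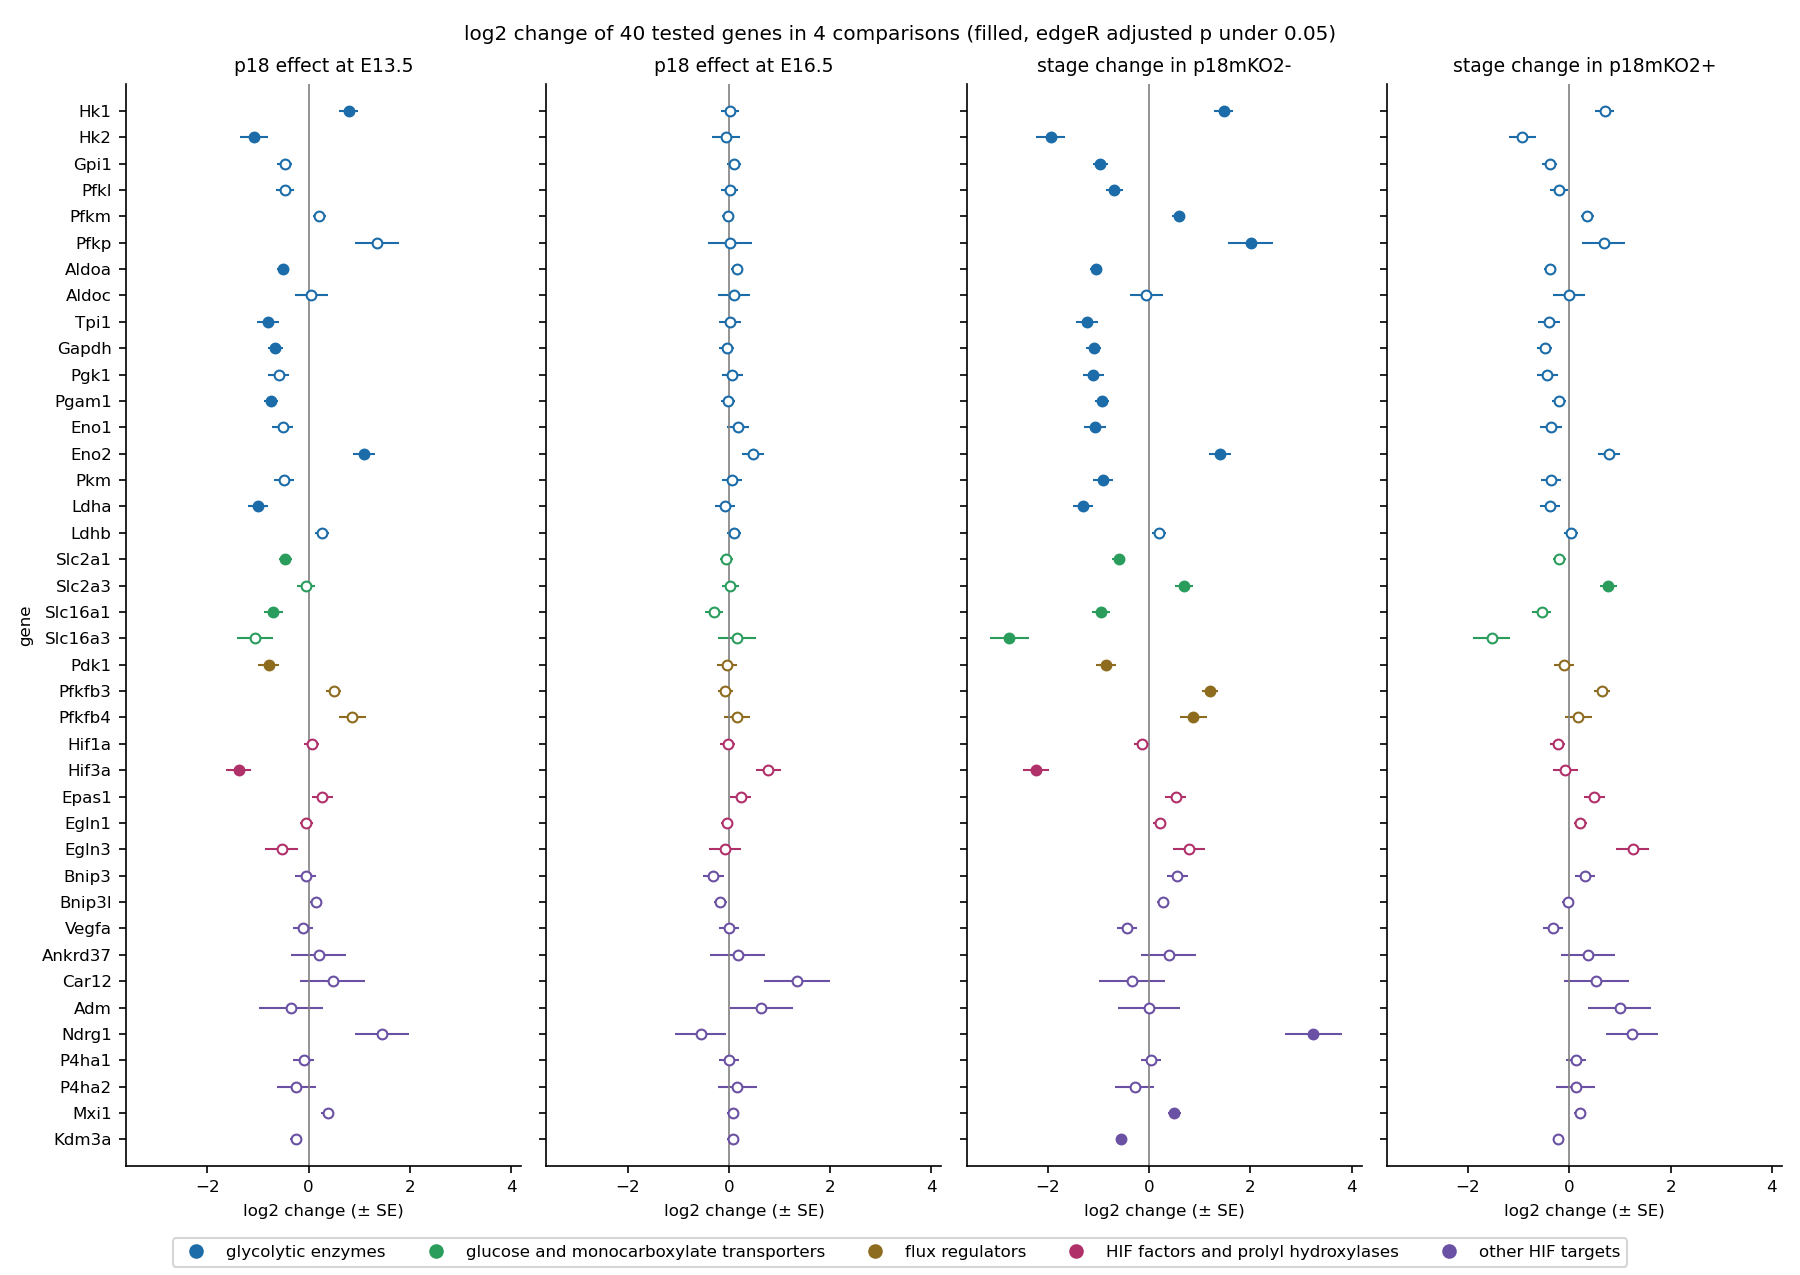
Log2 change with SE bars (horizontal axis) of the 40 tested members (vertical axis, coloured by role) in 4 panels: p18mKO2+ against p18mKO2- at E13.5 and at E16.5, and E16.5 against E13.5 in p18mKO2- and in p18mKO2+; filled points were called. At E13.5, 10 members were called lower and 2 higher, and at E16.5 none was called.

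The HIF core is written ACGTG or GCGTG. The 250 bases before the RefSeq start (build GRCm38.p6) were searched for either, on both strands, in the 37 members that have such a window; ACGTG is also part of the E-box CACGTG, which other factors bind. At least one core was found in 28 of 37 members (75.7%), against 12679 of 32851 RefSeq windows (38.6%). Among members called lower at E13.5 it was found in 8 of 10, among those called higher in 0 of 2, and among those not called in 19 of 24. The members were chosen as glycolysis and hypoxia response genes, so their share beside that of all RefSeq windows cannot test for enrichment. Only the chosen window of a member was counted, while every RefSeq window of a gene entered the background. The windows were not matched for base composition, and the difference in shares was not tested. A match describes letters and no measured binding. The windows of 5 genes that the results below turn on are shown 5′ to 3′ on the gene's strand, with matches in capitals: Ldha (chr7:46845554-46845803, plus strand), Ldhb (chr6:142507958-142508207, minus strand), Hk2 (chr6:82774455-82774704, minus strand), Pgam1 (chr19:41911621-41911870, plus strand) and Hif3a (chr7:17062428-17062677, minus strand). All 5 lie outside annotated exons; the Ldha window lies 4329 bases inside the longest GENCODE model of the gene, in an intron of it, and the Ldhb window belongs to the isozyme that was not called.

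Ldha: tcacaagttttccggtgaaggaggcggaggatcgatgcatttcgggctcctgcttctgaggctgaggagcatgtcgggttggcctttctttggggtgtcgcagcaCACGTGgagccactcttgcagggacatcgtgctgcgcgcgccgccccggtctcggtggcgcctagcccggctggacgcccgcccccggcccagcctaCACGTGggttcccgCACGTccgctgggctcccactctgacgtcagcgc
Ldhb: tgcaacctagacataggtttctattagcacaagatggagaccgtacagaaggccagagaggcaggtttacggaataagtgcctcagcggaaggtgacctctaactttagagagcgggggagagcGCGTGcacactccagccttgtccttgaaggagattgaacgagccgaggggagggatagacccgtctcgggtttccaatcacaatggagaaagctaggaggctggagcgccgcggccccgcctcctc
Hk2: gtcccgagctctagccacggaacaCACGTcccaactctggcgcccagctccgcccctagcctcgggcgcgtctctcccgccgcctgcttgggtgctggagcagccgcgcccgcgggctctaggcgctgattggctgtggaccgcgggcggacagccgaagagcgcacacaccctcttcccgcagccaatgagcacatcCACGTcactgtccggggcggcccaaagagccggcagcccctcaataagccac
Pgam1: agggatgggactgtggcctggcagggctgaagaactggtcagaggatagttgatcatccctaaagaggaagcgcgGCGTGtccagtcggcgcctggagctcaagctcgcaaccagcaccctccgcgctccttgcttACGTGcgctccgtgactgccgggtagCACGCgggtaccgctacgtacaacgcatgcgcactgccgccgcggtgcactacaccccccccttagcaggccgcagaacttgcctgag
Hif3a: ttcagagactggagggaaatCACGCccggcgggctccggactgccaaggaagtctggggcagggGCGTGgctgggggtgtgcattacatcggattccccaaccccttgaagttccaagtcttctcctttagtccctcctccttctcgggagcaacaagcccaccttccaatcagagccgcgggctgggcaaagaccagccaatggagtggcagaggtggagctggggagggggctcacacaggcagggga

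The windows of Ldha, Pgam1, Hk2 and Hif3a, called lower in p18mKO2+ at E13.5, hold 5, 3, 2 and 2 match positions, with overlapping palindromes counted on both strands. The Ldhb window holds 1. These counts do not separate called from uncalled members. The other members called lower hold 0 (Aldoa and Tpi1), 1 (Pdk1), 2 (Gapdh and Slc2a1) and 4 (Slc16a1). Members not called hold from 0, as in Gpi1, to 5, as in Bnip3.

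Glycolytic enzymes gave most of the calls. At E13.5, 6 of 17 fell in p18mKO2+, 2 rose and 9 were not called, with a median log2 change of -0.48. Of all genes tested, 3.49% were called lower and 7.29% higher. Without replicate 3 of E13.5 p18mKO2+ the counts were 2 lower and 1 higher, with a median of -0.41. From E13.5 to E16.5 in p18mKO2-, 11 of 17 fell and 4 rose (median -0.93), against 13.4% and 16.4% of all genes. Within p18mKO2+ none was called by edgeR's quasi-likelihood test, against 1.64% of all genes. With 17 genes, 0 calls lie near that share. In p18mKO2+, 7 of 17 had an unadjusted p under 0.05, against 2486 of 16798 genes, and DESeq2 called 5, against 839. The summed TPM (a level scaled by transcript length and library size) of the 17 enzymes was 6471 to 7822 in E13.5 p18mKO2-, 4548 to 5656 in E13.5 p18mKO2+, 2843 to 4375 in E16.5 p18mKO2- and 4059 to 4489 in E16.5 p18mKO2+. The E13.5 p18mKO2- libraries were above all 9 others. These sums include a second gene model with the symbol Aldoa, at 0 to 4.99 TPM. Gapdh had the highest mean TPM of the members in each group, at 3164 ± 259 TPM in E13.5 p18mKO2- and 2081 ± 244 TPM in E13.5 p18mKO2+ (SD, n = 3 each).

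The first step of glycolysis, phosphorylation of glucose by hexokinase, moved in opposite directions for its isozymes. Hk2 (ENSMUSG00000000628, GRCm38 chromosome 6, 82725025 to 82774454, minus strand), the inducible hexokinase, stood at 56.2, 74.1 and 48.1 CPM in E13.5 p18mKO2-, 32.2, 31.6 and 20.6 in E13.5 p18mKO2+, 20.1, 13.7 and 12.6 in E16.5 p18mKO2- and 16.2, 18.8 and 9.44 in E16.5 p18mKO2+, in replicate order. All E13.5 p18mKO2- libraries were above all others, and all E13.5 p18mKO2+ libraries above both E16.5 groups. Its level in p18mKO2+ at E13.5 was 2.11-fold lower, a log2 change of -1.08 ± 0.27 (SE; adjusted p = 0.022), and the stage change in p18mKO2- was -1.94 ± 0.28 (SE; adjusted p = 0.000165). Hk1 (ENSMUSG00000037012, GRCm38 chromosome 10, 62268855 to 62379908, minus strand), the main hexokinase of adult brain, stood at 41.4, 35.4 and 29.4 CPM in E13.5 p18mKO2-, 62.4, 46.4 and 75.8 in E13.5 p18mKO2+, 106, 89.8 and 99.2 in E16.5 p18mKO2- and 117, 90.1 and 92.0 in E16.5 p18mKO2+. Its E13.5 p18mKO2- libraries were the lowest 3, E13.5 p18mKO2+ lay between, and the E16.5 groups overlapped. The log2 change was 0.80 ± 0.19 (SE; adjusted p = 0.0155) for p18 at E13.5 and 1.47 ± 0.19 (SE; adjusted p = 6.59e-05) for stage in p18mKO2-. As a share of the TPM of both hexokinases, Hk1 was 30.9% ± 9.51 in E13.5 p18mKO2-, 67.1% ± 8.94 in E13.5 p18mKO2+, 83.6% ± 3.47 in E16.5 p18mKO2- and 85.7% ± 6.33 in E16.5 p18mKO2+ (SD, n = 3 each).

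The middle of the chain held fewer p18 calls. Gpi1, which makes fructose 6-phosphate, was at a log2 change of -0.47 ± 0.15 (SE; adjusted p = 0.0532) at E13.5 and fell by 0.97 from E13.5 to E16.5 in p18mKO2-. Of the phosphofructokinases, the committing step, Pfkl was at -0.46 ± 0.17 (SE; adjusted p = 0.103), Pfkm at 0.22 ± 0.13 (SE; adjusted p = 0.324) and Pfkp at 1.35 ± 0.44 (SE; adjusted p = 0.0657) for p18 at E13.5, so none was called. With stage in p18mKO2-, Pfkl fell by 0.69, while Pfkm rose by 0.59 and Pfkp by 2.01 on the log2 scale. Pfkl made up 49.1% ± 10.0 of phosphofructokinase TPM in E13.5 p18mKO2-, 33.5% ± 5.59 in E13.5 p18mKO2+ and 23.7% ± 11.97 in E16.5 p18mKO2- (SD, n = 3 each). The Pfkp share spread widely, over 4.73 to 25.6%, 14.5 to 39.4% and 16.2 to 61.1% in the same groups. Replicate 3 of E13.5 p18mKO2+ at 91.5 CPM and replicate 3 of E16.5 p18mKO2- at 137 CPM were the highest of their groups for Pfkp. Aldoa, the aldolase of muscle and most dividing tissue, stood at 209, 221 and 195 CPM in E13.5 p18mKO2-, 147, 151 and 144 in E13.5 p18mKO2+, 107, 108 and 86.9 in E16.5 p18mKO2- and 106, 112 and 122 in E16.5 p18mKO2+. E13.5 p18mKO2- was the highest group, with no overlap with E13.5 p18mKO2+, and E13.5 p18mKO2+ lay above both E16.5 groups. The log2 change of Aldoa was -0.50 ± 0.12 (SE; adjusted p = 0.0178) for p18 at E13.5 and -1.05 ± 0.12 (SE; adjusted p = 3.25e-05) for stage in p18mKO2-. A second gene model with the symbol Aldoa was at 0 to 1.58 CPM. It was not counted as a member and entered only the summed TPM of the enzymes. Aldoc, the brain aldolase and a marker of astrocytes, was not called in either comparison, at 0.06 ± 0.32 (SE; adjusted p = 0.946) and -0.05 ± 0.32 (SE; adjusted p = 0.927).

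Among genes for the steps from triose phosphate to pyruvate, Tpi1, Gapdh and Pgam1 were called lower in p18mKO2+ at E13.5. Pgk1, Eno1 and Pkm were not called. Tpi1, triose phosphate isomerase, stood at 361, 355 and 244 CPM in E13.5 p18mKO2-, 193, 209.6 and 146 in E13.5 p18mKO2+, 149, 167 and 93.0 in E16.5 p18mKO2- and 131, 129.6 and 153 in E16.5 p18mKO2+. Its E13.5 groups did not overlap, and E13.5 p18mKO2+ overlapped both E16.5 groups. Gapdh, glyceraldehyde 3-phosphate dehydrogenase and often used as a reference gene, stood at 1991, 2143 and 1919.8 CPM in E13.5 p18mKO2-, 1349, 1375 and 1118 in E13.5 p18mKO2+, 974, 1056 and 803 in E16.5 p18mKO2- and 864, 844 and 1037 in E16.5 p18mKO2+. The E13.5 p18mKO2- libraries were above all others, and E13.5 p18mKO2+ lay above both E16.5 groups. Pgam1 (ENSMUSG00000011752, GRCm38 chromosome 19, 41911923 to 41918660, plus strand), phosphoglycerate mutase, stood at 420.1, 432 and 405 CPM in E13.5 p18mKO2-, 238, 300.4 and 217 in E13.5 p18mKO2+, 210.3, 243 and 204 in E16.5 p18mKO2- and 208, 207 and 238 in E16.5 p18mKO2+. Its E13.5 p18mKO2- libraries were above all others, while E13.5 p18mKO2+ overlapped both E16.5 groups. The log2 change for p18 at E13.5 was -0.81 ± 0.22 (SE; adjusted p = 0.0293) for Tpi1, -0.66 ± 0.15 (SE; adjusted p = 0.0132) for Gapdh and -0.74 ± 0.14 (SE; adjusted p = 0.00477) for Pgam1. With stage in p18mKO2- the same 3 genes changed by -1.23, -1.10 and -0.93, and Pgk1, Eno1 and Pkm by -1.10, -1.06 and -0.90 on the log2 scale, all called. Pgk1, phosphoglycerate kinase, Eno1, the common enolase, and Pkm, pyruvate kinase, were not called for p18 at E13.5, with log2 changes of -0.59 ± 0.21 (SE; adjusted p = 0.0861), -0.51 ± 0.22 (SE; adjusted p = 0.152) and -0.48 ± 0.20 (SE; adjusted p = 0.149).

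Eno2 (ENSMUSG00000004267, GRCm38 chromosome 6, 124760053 to 124769673, minus strand), the neuronal enolase, ran the other way. It stood at 8.15, 7.16 and 8.66 CPM in E13.5 p18mKO2-, 16.53, 13.7 and 21.0 in E13.5 p18mKO2+, 19.1, 18.1 and 26.2 in E16.5 p18mKO2- and 29.9, 24.0 and 34.4 in E16.5 p18mKO2+. Its E13.5 p18mKO2- libraries were the lowest of the 12, all under 9 CPM, and E13.5 p18mKO2+ overlapped E16.5 p18mKO2-. Eno2 was 2.14-fold higher in p18mKO2+ at E13.5 (log2 change 1.09 ± 0.22 SE, adjusted p = 0.00628) and rose by 1.40 ± 0.22 (SE; adjusted p = 0.0003) with stage in p18mKO2-. Eno2 was a minor part of enolase TPM throughout, at 1.37% ± 0.217 in E13.5 p18mKO2-, 4.24% ± 1.59 in E13.5 p18mKO2+, 6.59% ± 2.62 in E16.5 p18mKO2- and 7.41% ± 0.458 in E16.5 p18mKO2+.

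Lactate dehydrogenase is a tetramer of A and B subunits, with Ldha favouring lactate production. Ldha (ENSMUSG00000063229, GRCm38 chromosome 7, 46841475 to 46855627, plus strand) stood at 428, 522 and 334 CPM in E13.5 p18mKO2-, 224, 257 and 163 in E13.5 p18mKO2+, 166, 204 and 149 in E16.5 p18mKO2- and 155, 151 and 189.5 in E16.5 p18mKO2+. Its E13.5 p18mKO2- libraries were above all others, and E13.5 p18mKO2+ overlapped the E16.5 groups. Ldha was 1.99-fold lower in p18mKO2+ at E13.5, a log2 change of -0.995 ± 0.20 (SE; adjusted p = 0.00645), and changed by -1.31 ± 0.20 (SE; adjusted p = 0.000264) with stage in p18mKO2-. Ldhb (ENSMUSG00000030246, GRCm38 chromosome 6, 142490249 to 142507957, minus strand) stood at 135, 112 and 144 CPM in E13.5 p18mKO2-, 159, 169 and 139.7 in E13.5 p18mKO2+, 151, 161 and 135 in E16.5 p18mKO2- and 151, 149 and 179 in E16.5 p18mKO2+. The E13.5 groups overlapped, as did the p18mKO2- groups of both stages, and Ldhb was not called for p18 at E13.5 (0.26 ± 0.14 SE, adjusted p = 0.254) or for stage in p18mKO2- (0.19 ± 0.14 SE, adjusted p = 0.328). As a share, Ldhb went from 29.4% ± 7.16 of lactate dehydrogenase TPM in E13.5 p18mKO2- to 48.8% ± 3.33 in E13.5 p18mKO2+, 53.4% ± 2.26 in E16.5 p18mKO2- and 56.1% ± 0.178 in E16.5 p18mKO2+. These isozyme shares are descriptions with no test, and they rise where one gene falls as well as where the other rises. From CPM divided by each gene's mean effective length, 35 of 36 mean shares per group lay within the SD of the TPM share.

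**Figure D2:**
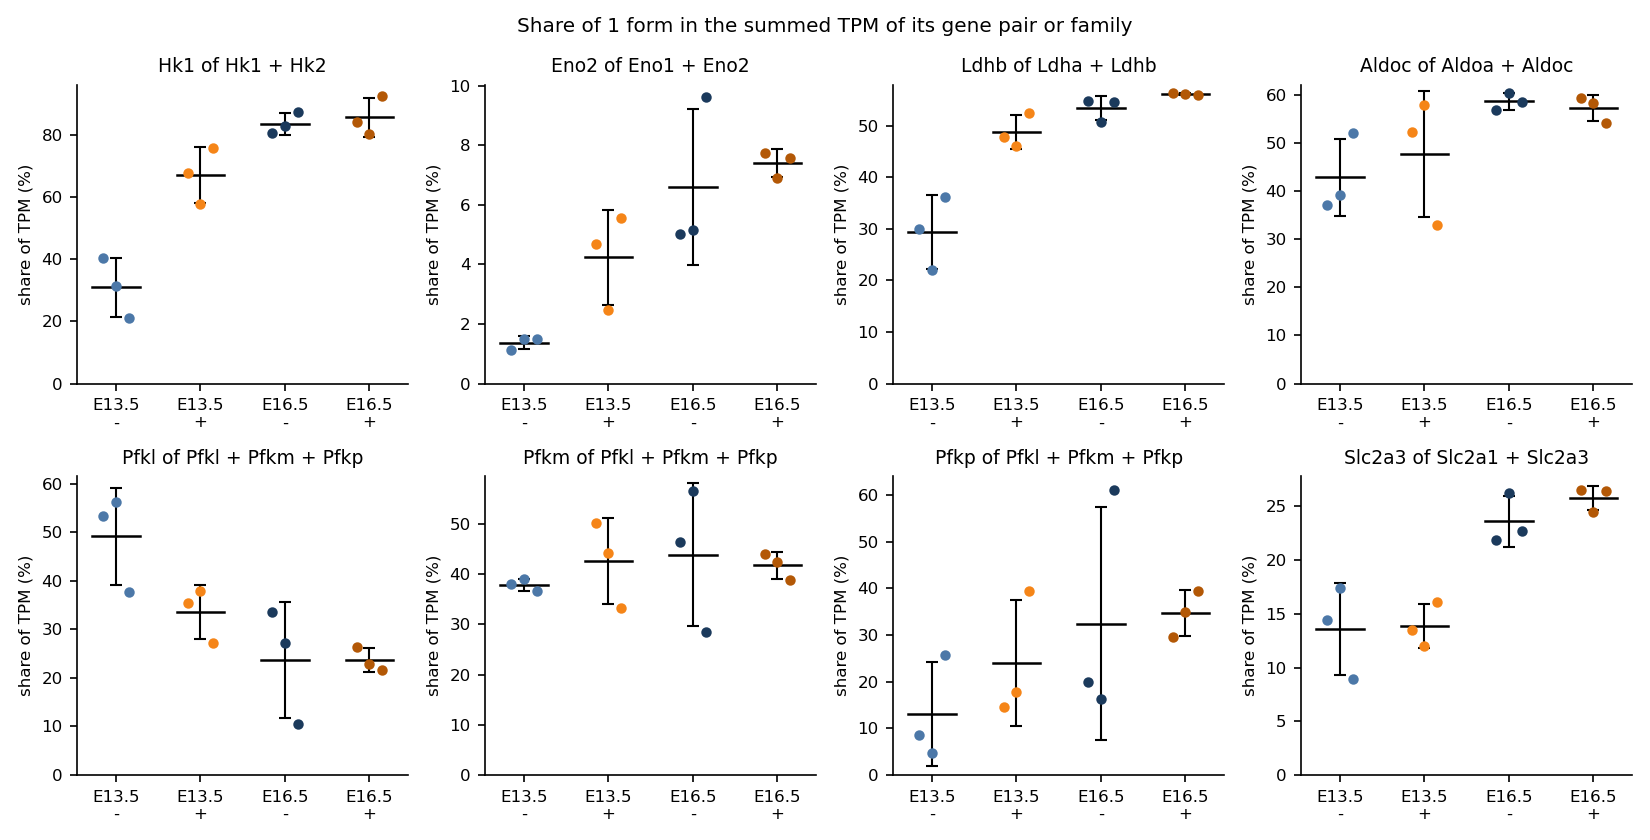
Share of TPM (percent, vertical axis) of one gene within its isozyme or transporter family, by group; points are libraries, horizontal lines the mean and bars the SD of 3. The Hk1 share lay at 21.2 to 40.3% in E13.5 p18mKO2- and above that in every library of the other groups.

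Of the 4 transporters, 2 fell at E13.5 in p18mKO2+, Slc2a1 and Slc16a1, against 3.49% of all genes called lower. The log2 change of each of the 4 was below 0 (median -0.58). Slc2a1, GLUT1, which carries glucose across the vessel wall and into progenitors, stood at 81.2, 79.0 and 73.9 CPM in E13.5 p18mKO2-, 51.9, 63.4 and 55.1 in E13.5 p18mKO2+, 54.1, 52.7 and 47.5 in E16.5 p18mKO2- and 48.0, 55.7 and 45.0 in E16.5 p18mKO2+. The E13.5 p18mKO2- libraries were the highest 3, and the other groups overlapped. Its log2 change was -0.46 ± 0.13 (SE; adjusted p = 0.0367) for p18 at E13.5, and -0.60 ± 0.13 (SE; adjusted p = 0.00309) for stage in p18mKO2-. Slc2a3, GLUT3, the neuronal glucose transporter, stood at 17.2, 15.4 and 12.6 CPM in E13.5 p18mKO2-, 12.7, 13.7 and 17.4 in E13.5 p18mKO2+, 24.5, 24.1 and 24.6 in E16.5 p18mKO2- and 25.4, 23.6 and 25.6 in E16.5 p18mKO2+. The E13.5 groups overlapped and all E16.5 libraries were above all E13.5 libraries. Slc2a3 was at -0.05 ± 0.17 (SE; adjusted p = 0.905) for p18 at E13.5 and rose with stage in both backgrounds, by 0.69 ± 0.17 (SE; adjusted p = 0.00785) in p18mKO2- and 0.77 ± 0.17 (SE; adjusted p = 0.0427) in p18mKO2+, the latter not called in 9 of 20 alternatives, among them those without replicate 2 of E16.5 p18mKO2-, without replicate 1 or 2 of E13.5 p18mKO2+ and without any 1 library of E16.5 p18mKO2+. Slc16a1, MCT1, which carries lactate and pyruvate, stood at 49.5, 55.9 and 41.8 CPM in E13.5 p18mKO2-, 32.7, 34.1 and 24.1 in E13.5 p18mKO2+, 28.1, 27.5 and 20.7 in E16.5 p18mKO2- and 22.7, 18.8 and 20.7 in E16.5 p18mKO2+. Its E13.5 p18mKO2- libraries were above all others, and its log2 change was -0.70 ± 0.18 (SE; adjusted p = 0.0262) for p18 and -0.95 ± 0.18 (SE; adjusted p = 0.0015) for stage in p18mKO2-. Slc16a3, MCT4, a lactate exporter and HIF target, stood at 7.68, 8.03 and 10.2 CPM in E13.5 p18mKO2-, 3.39, 4.07 and 4.95 in E13.5 p18mKO2+, 1.60, 1.12 and 1.10 in E16.5 p18mKO2- and 1.91, 1.54 and 0.829 in E16.5 p18mKO2+. All 3 E13.5 p18mKO2- libraries were above E13.5 p18mKO2+, which was above both E16.5 groups. The p18 change of Slc16a3 was not called (-1.06 ± 0.36 SE, adjusted p = 0.0739), and its stage change in p18mKO2- was -2.76 ± 0.39 (SE; adjusted p = 0.000127). The summed CPM of the 8 endothelial markers was 91.8 to 129 in E13.5 p18mKO2- and 116 to 121 in E13.5 p18mKO2+, which overlapped, and 1 of the 8 was called higher. Vessels carry Slc2a1, and their part in its change was not tested.

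Of the 3 regulators of flux, Pdk1 fell with p18 at E13.5, against 3.49% of all genes called lower. Pdk1, pyruvate dehydrogenase kinase, keeps pyruvate out of mitochondria, and stood at 58.1, 46.1 and 34.7 CPM in E13.5 p18mKO2-, 28.6, 24.6 and 27.2 in E13.5 p18mKO2+, 21.9, 23.6 and 31.5 in E16.5 p18mKO2- and 26.1, 27.8 and 21.1 in E16.5 p18mKO2+. The E13.5 p18mKO2- libraries were above all others, and the log2 change was -0.79 ± 0.20 (SE; adjusted p = 0.0241) for p18 and -0.85 ± 0.20 (SE; adjusted p = 0.00608) for stage in p18mKO2-. Pfkfb3, which makes the activator of phosphofructokinase, stood at 37.1, 44.7 and 29.2 CPM in E13.5 p18mKO2-, 51.5, 50.9 and 53.9 in E13.5 p18mKO2+, 87.6, 74.8 and 94.2 in E16.5 p18mKO2- and 87.1, 79.3 and 78.2 in E16.5 p18mKO2+. Its E13.5 groups did not overlap, but the change was not called (0.49 ± 0.15 SE, adjusted p = 0.0546), whereas stage in p18mKO2- gave 1.21 ± 0.15 (SE; adjusted p = 6.34e-05). Pfkfb4, of the same family, was at 0.86 ± 0.27 (SE; adjusted p = 0.0547) for p18 at E13.5 and 0.87 ± 0.27 (SE; adjusted p = 0.024) for stage in p18mKO2-.

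**Figure D3:**
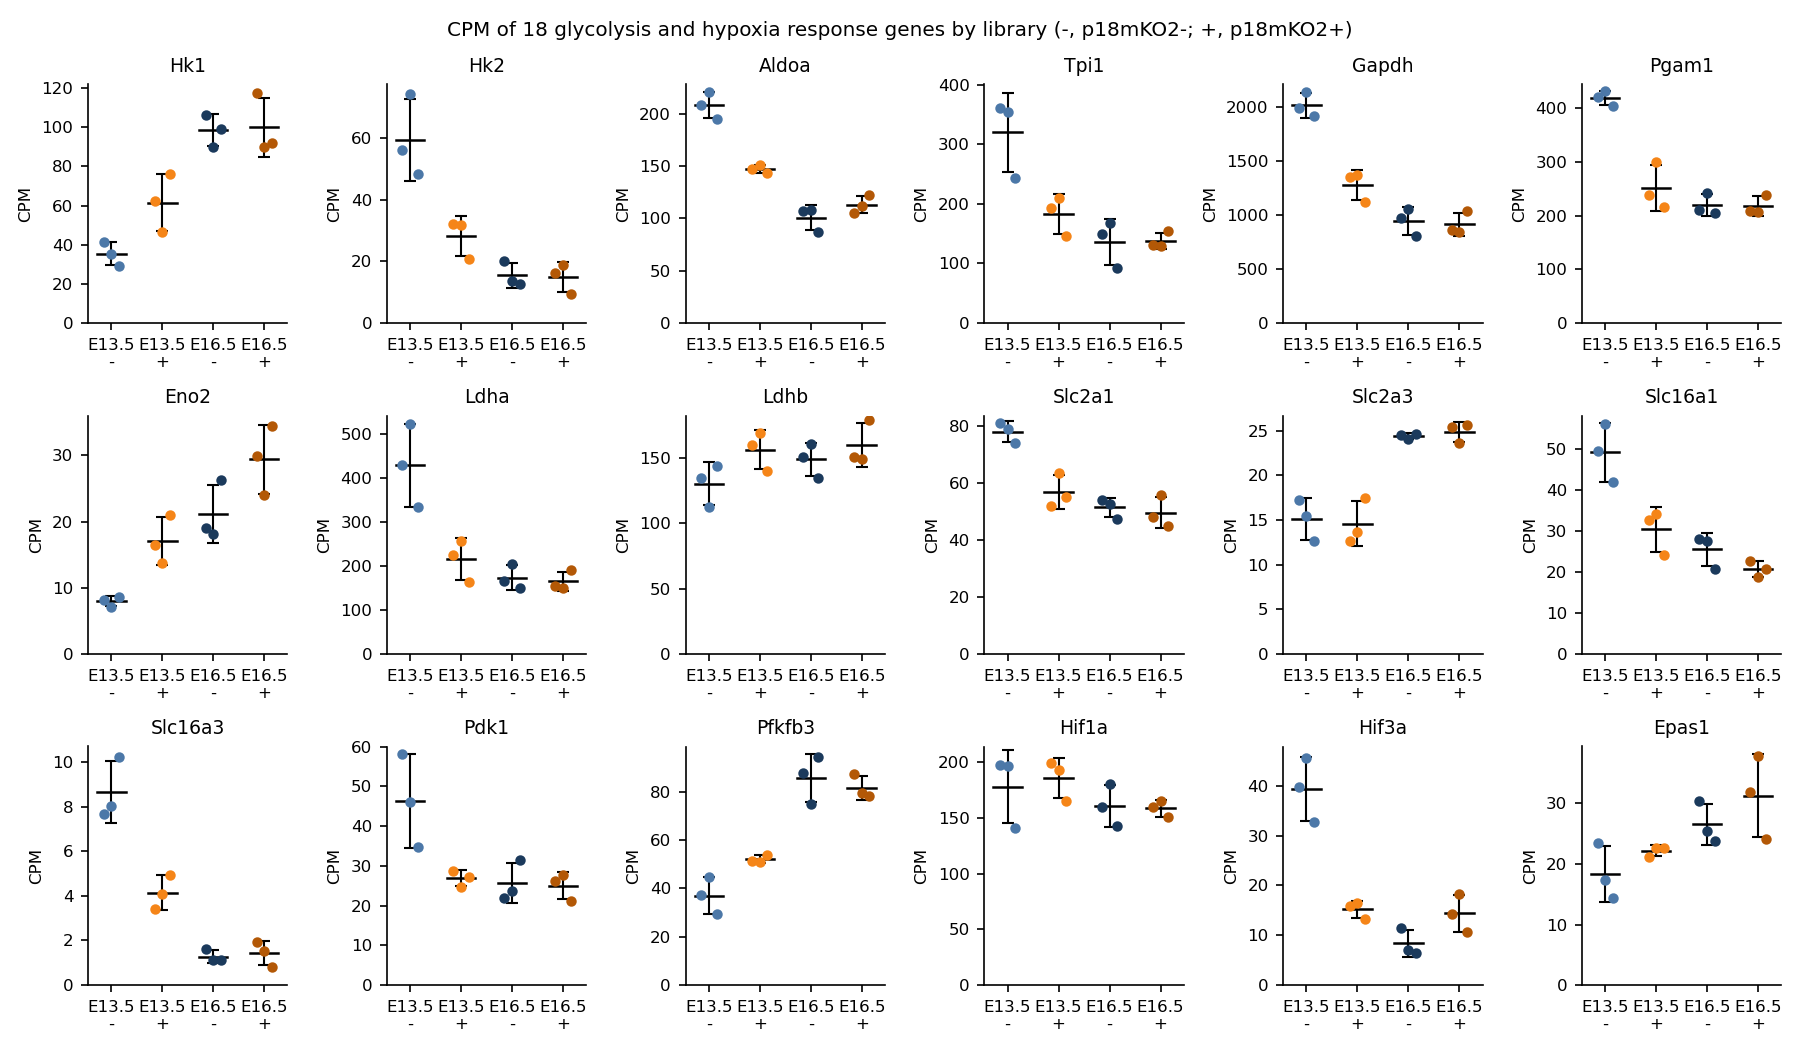
CPM (vertical axis, from 0) of 18 members by group; points are the 12 libraries in replicate order, horizontal lines the group mean and bars the SD of 3. Hif3a lay at 32.8 to 45.7 CPM in E13.5 p18mKO2- and at 18.2 CPM or below in all other libraries.

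The HIF factor genes differed among themselves. Hif1a, the broadly expressed HIF alpha subunit, stood at 197, 196 and 140.4 CPM in E13.5 p18mKO2-, 199, 193 and 165 in E13.5 p18mKO2+, 159.7, 179.9 and 142 in E16.5 p18mKO2- and 159.9, 165 and 150.4 in E16.5 p18mKO2+. All 4 groups overlapped, and no comparison called it (0.06 ± 0.15 SE, adjusted p = 0.857 for p18 at E13.5, -0.15 ± 0.15 SE, adjusted p = 0.511 for stage in p18mKO2-). RNA levels do not report HIF protein, which oxygen controls after translation. Epas1, the HIF2 alpha subunit that is high in vessels and some glia, stood at 23.5, 17.4 and 14.3 CPM in E13.5 p18mKO2-, 21.2, 22.7 and 22.7 in E13.5 p18mKO2+, 30.3, 25.4 and 23.9 in E16.5 p18mKO2- and 32.0, 37.8 and 24.1 in E16.5 p18mKO2+. Its E13.5 groups overlapped and it was not called for p18 at E13.5 (0.27 ± 0.21 SE, adjusted p = 0.463). Nor was Epas1 called for stage in p18mKO2-, though it was in 4 of 20 alternatives, which gave log2 changes of 0.38 to 0.76. Hif3a (ENSMUSG00000004328, GRCm38 chromosome 7, 17031507 to 17062427, minus strand), a HIF3 alpha subunit of which some isoforms dampen HIF activity, stood at 39.8, 45.7 and 32.8 CPM in E13.5 p18mKO2-, 15.9, 16.46 and 13.2 in E13.5 p18mKO2+, 11.5, 7.07 and 6.49 in E16.5 p18mKO2- and 14.3, 18.2 and 10.6 in E16.5 p18mKO2+. E13.5 p18mKO2- was the highest group without overlap. At E16.5 the p18mKO2+ libraries had the higher mean, 14.4 ± 3.78 against 8.37 ± 2.76 CPM, but 1 p18mKO2+ library lay under the highest p18mKO2- library. Hif3a was 2.60-fold lower in p18mKO2+ at E13.5 (log2 change -1.38 ± 0.25 SE, adjusted p = 0.00363) and at 0.78 ± 0.25 (SE; adjusted p = 1) at E16.5. The p18 effects of the 2 stages differed by 2.16 ± 0.35 (SE, edgeR's quasi-likelihood test, adjusted p = 0.00676). This difference was called in all 19 alternatives run, DESeq2 with its own test among them, with values from 1.97 to 2.48. With stage in p18mKO2-, Hif3a changed by -2.24 ± 0.26 (SE; adjusted p = 2.99e-05). The prolyl hydroxylases Egln1 and Egln3, which mark HIF alpha for destruction, were not called for p18 at E13.5 (-0.04 ± 0.13 SE, adjusted p = 0.882 and -0.53 ± 0.32 SE, adjusted p = 0.335) or for stage in p18mKO2-. Between stages in p18mKO2-, 4 of these 5 genes did not overlap, against 40.4% of all genes. Epas1, Egln1 and Egln3 were higher at E16.5 and Hif3a was lower.

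None of the 11 other HIF targets tested was called for p18 at E13.5 by edgeR's quasi-likelihood test, against 10.8% of all genes. With 11 genes, 0 calls lie near that share. At an unadjusted p under 0.05 there were 2, against 4271 of 16798 genes, and DESeq2 called 1, against 2666. The median log2 change of the 11 was -0.06. Vegfa, the vessel growth factor, was at -0.11 ± 0.20 (SE; adjusted p = 0.782), Bnip3, a mitophagy receptor, at -0.06 ± 0.21 (SE; adjusted p = 0.907), and Ndrg1, a hypoxia and differentiation gene, at 1.45 ± 0.53 (SE; adjusted p = 0.101). From E13.5 to E16.5 in p18mKO2-, Ndrg1 rose by 3.25 ± 0.56 (SE; adjusted p = 0.000641), Mxi1, a MYC antagonist, rose by 0.50 ± 0.12 (SE; adjusted p = 0.00658), and Kdm3a, a histone demethylase, fell by 0.55 (adjusted p = 0.0028). The others, P4ha1, P4ha2, Adm, Ankrd37, Car12, Bnip3l, Bnip3 and Vegfa, were not called with stage, with a list median of 0.04. Adm, Car12 and Ankrd37, all at low levels, had SEs of 0.54 to 0.64 for p18 at E13.5, the widest of the list.

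Further genes of these pathways, which are not members, were called at E13.5 in shares near or under that of all genes (10.8%). Of 23 other glycolysis and pyruvate genes tested, 1 rose and none fell (median -0.04): Me1, malic enzyme, at 1.07 ± 0.28 (SE; adjusted p = 0.0261). Of 28 other HIF pathway genes, 1 rose and 2 fell (median -0.24). Cited2, a HIF-induced gene, rose by 0.60 ± 0.15 (SE; adjusted p = 0.0222), and Plod2, a collagen hydroxylase, and Fam162a, a HIF target of mitochondria, were at -1.07 ± 0.21 (SE; adjusted p = 0.0051) and -0.89 ± 0.22 (SE; adjusted p = 0.0198). With stage in p18mKO2-, 5 of 23 and 3 of 28 rose and 4 and 8 fell (medians 0.05 and -0.32), against 29.8% of all genes called in either direction. The calls of smallest p were Slc16a7, a high-affinity pyruvate and lactate transporter, at 2.29 ± 0.35 (SE; adjusted p = 0.00028), Slc2a4, GLUT4, at -1.49 ± 0.25 (SE; adjusted p = 0.000492), Me1 at 1.69 ± 0.28 (SE; adjusted p = 0.00055) and Adpgk, an ADP-dependent glucokinase, at -0.90 ± 0.17 (SE; adjusted p = 0.00145). Of the HIF pathway genes they were Cited2 at 1.26 ± 0.15 (SE; adjusted p = 4.57e-05), Plod2 at -1.13 ± 0.21 (SE; adjusted p = 0.000997), Ak4, a mitochondrial adenylate kinase, at -1.92 ± 0.41 (SE; adjusted p = 0.00282), and Tfrc, the transferrin receptor, at -0.75 ± 0.16 (SE; adjusted p = 0.00256).

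**Figure D4:**
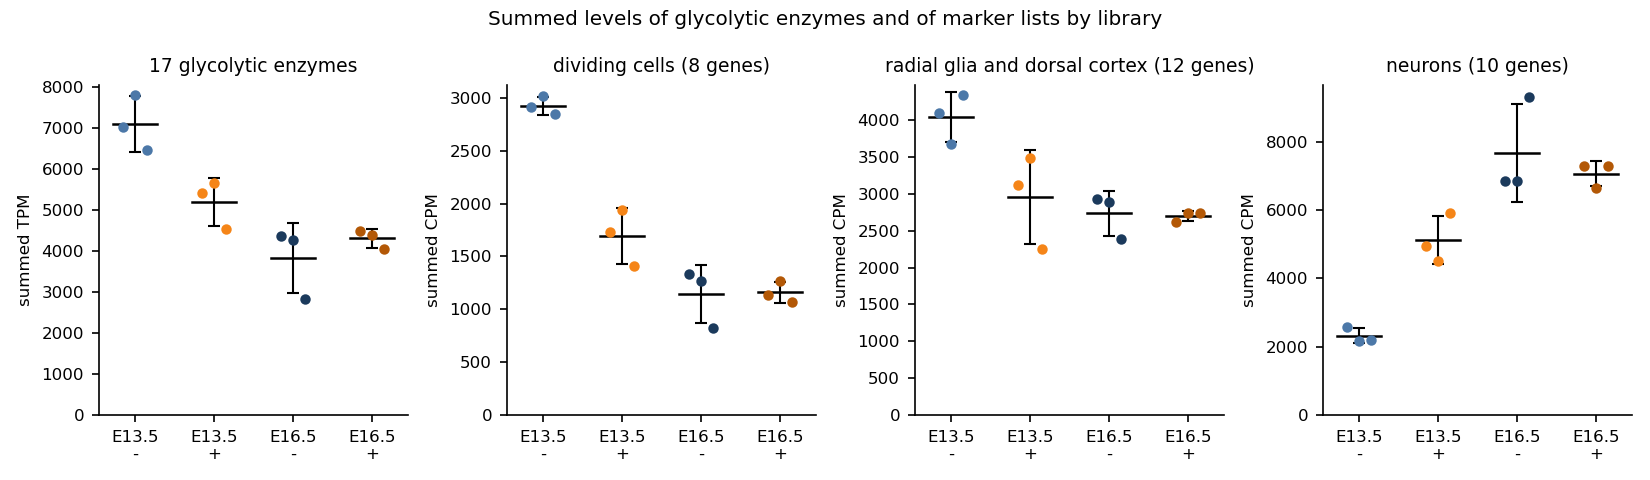
Summed TPM of the 17 glycolytic enzymes (with a second Aldoa gene model) and summed CPM of 3 marker lists (vertical axes, from 0) by group. Points are libraries, horizontal lines the mean and bars the SD of 3. The enzyme and dividing-cell sums were highest in E13.5 p18mKO2-, where the neuronal sum was lowest; sums for cell types and enzymes share libraries and no relation between them was tested.

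The marker lists behind those sums were also called at E13.5, with 7 of 8 dividing-cell markers and 6 of 12 markers of radial glia and dorsal cortex lower, and 6 of 10 neuronal markers higher in p18mKO2+. Of all genes tested, 3.49% were called lower and 7.29% higher. Of the 8 ventral telencephalon markers, all had a log2 change above 0 at both stages, with 1 called at E13.5 (median 0.96) and none at E16.5 (median 1.201). At E16.5, 7 had an unadjusted p under 0.05, against 426 of 16798 genes, and DESeq2 called 1, against 16. Erythroid markers summed to 2001 to 2454 CPM in E13.5 p18mKO2- and 1339 to 1939.6 CPM in E13.5 p18mKO2+, without overlap, and 2 of 9 were called lower. The sums of the other 7 lists, those for intermediate progenitors, astrocytes, endothelial cells, pericytes, microglia, meninges, and choroid plexus and hem, overlapped at E13.5, with Gfap and S100b of the astrocyte list at 0 in E13.5 p18mKO2-. Single genes of these lists were called there: 2 higher and 1 lower of 7 astrocyte markers tested, and 1 lower of 5 intermediate progenitor markers. The endothelial list (8 genes) and the pericyte list (6 genes) had 1 called higher each, and the remaining lists had none. At E13.5, CT010467.1 was at 52442 to 87992 CPM in E13.5 p18mKO2- and 26186 to 65840.5 CPM in E13.5 p18mKO2+, which overlapped. With this level as a covariate, 5 members were called for p18 at E13.5, and 729 of all genes, against 1810 without it. The part of these lists and of ribosomal RNA in the member results was not tested.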

How the data were processed

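Gene expression was measured by RNA-seq in 12 libraries, 3 in each of 4 groups, made with a directional kit from polyadenylated RNA, per the labels' protocols. Per the submitters' processing notes, RSEM 1.2.31, STAR 2.7.2b and cutadapt 3.4 were used with the build GRCm38 (mm10); no source used here gives the annotation release or the strand setting. Per the file headers, the authors deposited an expected count for each gene, an RSEM estimate that shares ambiguous reads between genes and can be fractional. TPM, a count per effective length scaled to a fixed library total, was also deposited, per the file headers. RSEM's posterior SD of a member's count was at most 0.824% of that count, for Pgk1.

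The members and lists were chosen with earlier results of these data known. Expected counts were rounded and all 16798 genes kept by filterByExpr were fitted with edgeR 4.0.16 (R 4.3.3) quasi-likelihood models with TMM scaling and 1 mean per group, leaving 8 residual degrees of freedom. A gene was called where its Benjamini-Hochberg adjusted p over all genes tested was under 0.05, and the SE is the absolute log2 change divided by the square root of F. CPM use TMM-scaled totals. The 5 comparisons set p18mKO2+ against p18mKO2- at either stage, E16.5 against E13.5 in p18mKO2- and in p18mKO2+, and the p18 effects of the stages against each other. The fits were tested on simulated counts.

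Values in every library are given for members called in a p18 comparison or its difference between stages, the 8 members of smallest p in the stage change in p18mKO2-, the HIF factor genes, Ldha, Ldhb, Slc2a1 and Slc2a3; Slc16a3 and Pfkfb3 entered by the stage rule. Of each list of other genes, up to 4 called genes of smallest p are named. Names and coordinates are from GENCODE on GRCm38 and promoter windows from RefSeq on GRCm38.p6. Alternatives were RLE size factors, DESeq2 1.42.0, no filter, a filter at mean CPM 5, a replicate block, fits of the compared groups by themselves, and omission of each library in turn. Omission of the libraries holding transcripts of both sexes, and a ribosomal RNA covariate, were added after seeing the data. Figures were drawn with matplotlib 3.10.9.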

Additional observations from a re-analysis of the deposited data

Results flagged for a closer look

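The p18 effect on Hif3a differed between stages. The log2 change was -1.38 ± 0.25 (SE) at E13.5 and 0.78 ± 0.25 at E16.5, and the test of the difference gave 2.16 ± 0.35 (edgeR quasi-likelihood, adjusted p = 0.00676). Hif3a was lower in all 3 p18mKO2+ libraries than in all 3 p18mKO2- libraries at E13.5, while the E16.5 groups overlapped.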

How the results depend on the processing

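The count of members called for p18 at E13.5 was 12, and 4 to 19 with 1 library left out; it was 4 without the libraries with transcripts of both sexes and 5 with the ribosomal RNA covariate, and all 12 kept their direction in every alternative. DESeq2 called 18, the fit without a filter 16 and the mean CPM filter 16. Over all genes 1810 were called, and 927 to 2383 with 1 library left out. The calls over all genes were 796 without the libraries with transcripts of both sexes and 729 with the covariate. DESeq2 called 2666 of all genes, the fit without a filter 2527 and the mean CPM filter 2019. At E16.5 the count of members stayed at 0, and in the stage change in p18mKO2- it was 25 to 30 beside 26. In the stage change in p18mKO2+, 1 member was called, against 2 with RLE size factors, 9 by DESeq2, 8 without a filter, 2 at a mean CPM of at least 5, 4 with the groups alone, 0 to 5 with 1 library left out, 0 without the libraries with transcripts of both sexes and 0 with the covariate. Over all genes the calls in that comparison were 275, against 283, 839, 970, 363, 622, 76 to 573, 116 and 206 in the same order. For the difference between stages, 1 member was called, against 5 by DESeq2, 7 without a filter, 3 at a mean CPM of at least 5, 2 with the covariate and 1 to 2 with 1 library left out. Over all genes these counts were 453, against 1108, 1168, 540, 562 and 124 to 525. Without the libraries with transcripts of both sexes, 1 member and 149 of all genes were called for this difference. Of the single-gene changes, 3 reversed: with 1 library left out, the p18 change at E13.5 ran from -0.0828 (without replicate 3 of E13.5 p18mKO2-) to 0.14 for Hif1a, and from -0.193 to 0.0462 (without replicate 1 of E13.5 p18mKO2-; also above 0 without replicate 1 of E13.5 p18mKO2+) for Slc2a3, and neither was called. Over 757 alternatives of 38 single-gene results, 686 kept direction and side of the threshold, 58 lost the call and 10 gained it. The causes were not tested.

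With the replicate number as a block, 18 members were called for p18 at E13.5, 30 for stage in p18mKO2-, 6 for stage in p18mKO2+ and 4 for the difference. Over all genes the calls with this block were 2369, 5526, 547 and 767. The labels do not say what a number shares. Over 18 same-numbered pairs the correlation of deviations from the group mean was -0.07 to 0.28 and was over 0.1 in 8, so the numbers were not taken as pairs. In 10 of 18 the library correlated best with its own number, and in 2 of 6 pairs of groups (E16.5 p18mKO2+ with each p18mKO2- group) all 3 did, a hint from the data and not from the design. Car9, at 0 to 0.76 CPM, was left out by the filter on low counts.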
